A study of Homo sapiens with 6 samples.

Results

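The metallothioneins and MTF1, the zinc-sensing transcription factor that switches them on, were examined in cells labelled Hep3B with and without a nuclear form of PD-L1. The members were chosen by gene name: MT1A, MT1E, MT1F, MT1G, MT1H, MT1M, MT1X, MT2A and MTF1. Of these 9 names, 4 had a row among the 27009 genes analysed, namely MT2A, MT1X, MT1F and MTF1. The other 5, MT1A, MT1E, MT1G, MT1H and MT1M, were not analysed here. None of the 4 genes passed the test between the groups. MT2A supplied nearly all of the reads of the 3 measured metallothioneins in every library, and MT1F had the largest fitted difference, toward lower values with nPD-L1.

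The libraries were labelled as Hep3B, a human hepatocellular carcinoma line, with its own PD-L1 gene disrupted. Both groups carried this knockout and were made as stable cells by lentiviral delivery and puromycin selection. The vector group received the empty pCDH-CMV-Puro plasmid. The nPD-L1 group received, from the CMV promoter of the same plasmid, PD-L1 mutated so that it is held in the nucleus. There were 6 RNA-seq libraries, 3 per group, and the labels do not say whether they came from separate cultures. The p values thus measure the spread between these libraries. The labels also name no separate stable lines within a group. The construct and other differences between the stable cells of the groups therefore cannot be told apart.

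Metallothioneins are small cysteine-rich proteins that bind zinc, copper and cadmium through clusters of thiolates. In liver they buffer zinc and copper and take up toxic metals. When free zinc rises, MTF1 binds it through its zinc fingers, enters the nucleus and activates genes that carry metal response elements, among them the metallothioneins and the zinc exporter SLC30A1. Glucocorticoids and oxidative stress also raise metallothionein transcription.

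Values are given as scaled reads, meaning a gene's reads after division by its library's size factor. The libraries held 17427519 to 22253295 reads on genes. The targeted gene, CD274 (which encodes PD-L1), stood at 28.3, 38.4 and 47.8 scaled reads with the vector and at 16.8, 19.2 and 30.9 in the libraries labelled nPD-L1. It was thus not higher where a PD-L1 sequence had been introduced, and every direction given for nPD-L1 is that of libraries with this label. The log2 fold change of CD274 was −0.76 (unadjusted p = 0.047, adjusted p = 0.34 from limma), and the groups overlapped. Per kilobase of gene model, CD274 exceeded 14.1% of the genes tested with the vector and 8.07% with nPD-L1. It was thus low in both groups, and whether reads of the construct were counted for CD274 was not tested. Of 11 hepatocyte markers with a row, 6 (ALB, APOA1, APOA2, APOB, TTR and TF) reached at most 2.89 scaled reads in any library. Albumin and the main apolipoproteins, which define hepatocytes, were thus at or near 0, which puts the labelled identity of the line in doubt. However, FGB held 962 to 1540 scaled reads over the 6 libraries, FGG 658 to 1129 and APOH 140 to 308. The markers of the list thus went both ways, and the identity of the line was not tested further. AFP, also on the list, was not analysed here. FGB, FGG, APOH, SERPINA1 and HNF4A were above the minimum for testing, and of these only HNF4A passed the test, with a log2 fold change of 1.91. The summed level of the list was 1809 to 3002 scaled reads with the vector and 1954 to 2186 with nPD-L1. Of 6 fibroblast, endothelial and blood cell markers with a row, 5 stayed below 10 scaled reads in every library. The exception was COL1A1, with 49.9 to 82.8 scaled reads with the vector and 445 to 487 with nPD-L1 (adjusted p = 8e-06 from limma), and the sum of the list went from 63.4 to 88.8 up to 454 to 498. The part of these markers in the results was not tested.

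The coding sequences of the measured metallothioneins are shown because their likeness bears on how far their reads can be told apart. Each coding sequence (GENCODE release 29, the first-named transcript of each gene, without its stop codon) had 183 bases over 3 exons, and 20 of its 61 codons encoded cysteine. The sequences below are written from the start codon, with the cysteine codons in capitals.
MT2A: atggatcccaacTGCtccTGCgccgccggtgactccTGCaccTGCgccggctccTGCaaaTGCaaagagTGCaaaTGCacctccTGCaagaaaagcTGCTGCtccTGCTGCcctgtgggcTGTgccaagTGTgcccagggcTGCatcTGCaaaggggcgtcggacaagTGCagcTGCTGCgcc
MT1X: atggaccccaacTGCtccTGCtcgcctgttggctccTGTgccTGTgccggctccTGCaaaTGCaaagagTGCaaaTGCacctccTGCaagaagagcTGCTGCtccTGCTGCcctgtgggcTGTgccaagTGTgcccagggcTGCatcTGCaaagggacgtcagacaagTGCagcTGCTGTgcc
MT1F: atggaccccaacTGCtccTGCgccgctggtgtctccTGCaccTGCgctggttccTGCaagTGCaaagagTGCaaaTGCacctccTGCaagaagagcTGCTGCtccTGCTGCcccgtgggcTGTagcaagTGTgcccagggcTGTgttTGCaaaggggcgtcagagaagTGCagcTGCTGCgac
The positions of the capitals were the same in all of them, and most differences between the genes lay between the cysteine codons. MT2A and MT1X shared 169 of 183 bases (92.3%), MT2A and MT1F 167 (91.3%), and MT1X and MT1F 162 (88.5%). Over the whole transcript, 45.1% of the 50-base stretches of MT1X also occurred in transcripts of other genes, against 4.88% for MT2A, 3.59% for MT1F and 0.644% for MTF1. Of the measured members, MT1X thus had the largest share of sequence in common with other genes. How multiply mapped reads were treated is not given in the sources used here. MT1X also overlaps AC026461.1 on the same strand, and any stretches shared with that gene were not left out of the 45.1%. How much of this share came from the overlap was not tested. MTF1 overlaps AL929472.4 on the other strand, and the strand setting of the counting is not given.

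Metal response elements were looked for in RefSeq promoter sequences (GRCh38.p14), taken as the 250 bases before the annotated start. Of the members, MT2A, MT1X, MT1H and MTF1 had such a sequence. The core was searched as TGCACNC or TGCGCNC on both strands, and matches may overlap. Of all 35116 promoters, 24.8% held at least 1 match. The promoters of MT2A and MT1X are shown because MTF1 acts through such elements, with each match to the core in capitals. No promoter sequence was available for MT1F.
MT2A promoter, chr16:56608334-56608583, + strand: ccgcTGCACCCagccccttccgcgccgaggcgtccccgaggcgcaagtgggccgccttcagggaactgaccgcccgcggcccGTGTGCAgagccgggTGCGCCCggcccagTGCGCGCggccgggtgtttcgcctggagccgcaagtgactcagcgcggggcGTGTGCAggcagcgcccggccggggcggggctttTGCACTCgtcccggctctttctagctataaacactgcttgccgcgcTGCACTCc
MT1X promoter, chr16:56682220-56682469, + strand: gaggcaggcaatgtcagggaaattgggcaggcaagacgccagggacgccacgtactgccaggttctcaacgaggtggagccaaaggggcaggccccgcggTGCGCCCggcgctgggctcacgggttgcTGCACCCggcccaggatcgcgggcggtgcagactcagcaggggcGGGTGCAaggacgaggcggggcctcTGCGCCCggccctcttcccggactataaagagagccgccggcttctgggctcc
The MT2A promoter held 7 matches, 5 on the strand of the gene and 2 on the other. At least 7 matches were found in 0.0313% of all promoters, or 11 of them. The MT1X promoter held 4, as many or more being found in 0.370% of promoters, and the MT1H promoter held 8. The MTF1 promoter held 0. The RefSeq starts are not those of the gene models used for the values. The MT2A stretch lies inside its gene model (56608199 to 56609497). The MT1X stretch overlaps the start of its model (56682424), as does that of MTF1 (37859620). A match is a description of the sequence and not a measured binding site.

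**Figure D1:**
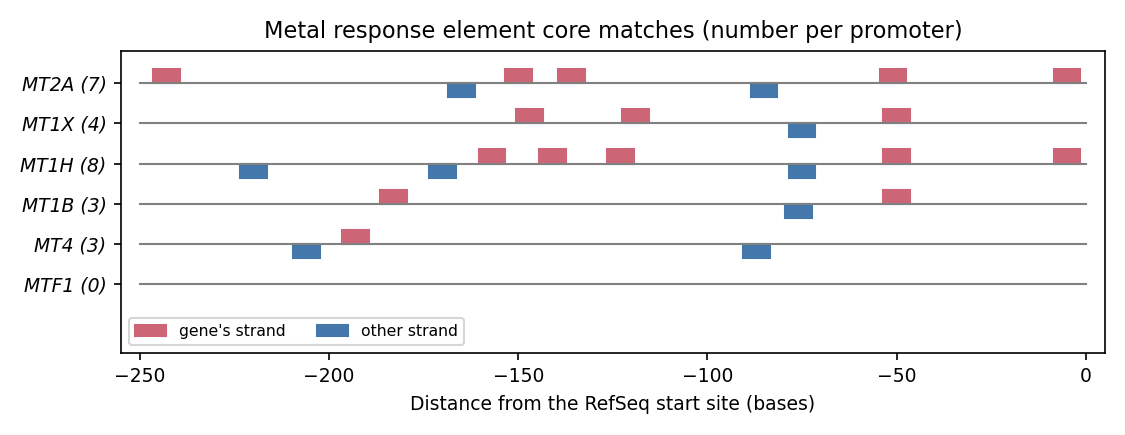
Positions of matches to the metal response element core in 6 promoters of the family and of MTF1, in bases before the RefSeq start site. Blocks above a line lie on the strand of the gene and blocks below it on the other strand. MT2A held 7 matches, MT1X 4 and MTF1 0.

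Levels differed far more between the members than between the groups. Per kilobase of gene model, MT2A stood at 1297 scaled reads with the vector and 1237 with nPD-L1, above 95.8% of the genes tested in each group. MTF1 stood at 37.2 and 35.2 per kilobase, and exceeded 35.4% and 33.8% of the genes tested. MT1F stood at 23.7 and 12.05 per kilobase and MT1X at 21.4 and 21.1. The order of these last genes in the vector libraries did not exceed their spread. The lengths are those in the deposited table, and for the metallothioneins they are longer than the coding transcripts. MT1F had 1889 bases against 690 in the transcript, and MT1X had 1773 against 450. For MTF1 the lengths were close, at 8024 and 7972 bases. The place of MTF1 above MT1F and MT1X in the vector libraries thus depends on the length used. The 3 metallothioneins together took 0.00749% to 0.0117% of each library, and MT2A made up 95.01% to 96.7% of their sum. Their sum was 1768 ± 178 scaled reads with the vector and 1667 ± 451 with nPD-L1 (SD, n = 3 each).

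MT2A (ENSG00000125148; chromosome 16, 56608199 to 56609497, + strand, GRCh38) is the most widely expressed human metallothionein. Vector replicates 1, 2 and 3 held 1808, 1485 and 1763 scaled reads, and nPD-L1 replicates 1, 2 and 3 held 2113, 1398 and 1309. The groups overlapped, since nPD-L1 replicate 1 was the highest of all 6 libraries and nPD-L1 replicates 2 and 3 the lowest. In bulk RNA, fewer expressing cells and less RNA per cell cannot be told apart. The log2 fold change, nPD-L1 against vector, was −0.10 (standard error 0.17, 95% interval −0.47 to 0.28, adjusted p = 0.84 from limma). The interval corresponds to 0.721-fold to 1.21-fold. Counting error was small, at 1.99% to 2.76% of the reads in each library, so the spread between libraries set this interval. Without nPD-L1 replicate 1 the log2 fold change was −0.31, with an adjusted p of 0.333 in limma.

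MT1X (ENSG00000187193; chromosome 16, 56682424 to 56684196, + strand) is a metallothionein of the MT1 group that is induced by metals in many cell types. The vector libraries held 23.2, 29.4 and 61.3 scaled reads, and the nPD-L1 libraries 43.7, 42.5 and 26.05. The nPD-L1 libraries all lay within the range of the vector libraries. The means, 38.0 ± 20.5 and 37.4 ± 9.86 (SD, n = 3 each), were slightly lower with nPD-L1, whereas the fit on the log scale was slightly higher. The log2 fold change was 0.07 (standard error 0.38, 95% interval −0.78 to 0.91, adjusted p = 0.96 from limma). Vector replicate 3 held 59 reads, with a counting interval of 44.9 to 76.1 (exact Poisson, 95%), and vector replicate 1 held 23, with an interval of 14.6 to 34.5. These replicates thus differed by more than counting error. The fitted direction for MT1X was lower when replicate 1 or 2 of either group was left out.

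MT1F (ENSG00000198417; chromosome 16, 56657694 to 56660698, + strand) is another MT1 metallothionein. The vector libraries held 58.5, 48.6 and 27.0 scaled reads, and the nPD-L1 libraries 27.7, 21.2 and 19.3. The groups met at a narrow margin, where nPD-L1 replicate 1 lay just above vector replicate 3. The means were 44.7 ± 16.1 and 22.8 ± 4.42 (SD, n = 3 each). The log2 fold change was −0.89 (standard error 0.34, 95% interval −1.65 to −0.13). It had an unadjusted p of 0.026 and an adjusted p of 0.24 in limma, and did not pass the threshold. By exact permutation of the 6 labels, two-sided, p was 0.2, and the smallest value such a design allows is 0.1. The gene had 20 to 58 reads a library, so counting error alone was 13.1% to 22.4%. Within the vector group, 58 reads (interval 44.0 to 74.98) and 26 reads (interval 17.0 to 38.1) differed by more than this. MT1F kept its direction in every fit with a library left out, from −1.21 to −0.67, with adjusted p values of 0.0581 (without vector replicate 3) to 0.598 in limma.

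MTF1 (ENSG00000188786; chromosome 1, 37809567 to 37859620, − strand) encodes the metal-sensing factor itself. The vector libraries held 313, 183 and 400 scaled reads, and the nPD-L1 libraries 334, 261 and 253. The vector libraries held both the highest and the lowest value. The log2 fold change was −0.02 (standard error 0.25, 95% interval −0.57 to 0.54, adjusted p = 0.98 from limma), or 0.671-fold to 1.45-fold. The vector libraries set its spread, with an SD of 36.6% of the mean against 15.8% in the nPD-L1 group. Without vector replicate 2 the log2 fold change was −0.34 (adjusted p = 0.304 in limma), and without vector replicate 3 it was 0.23 (0.618).

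**Figure D2:**
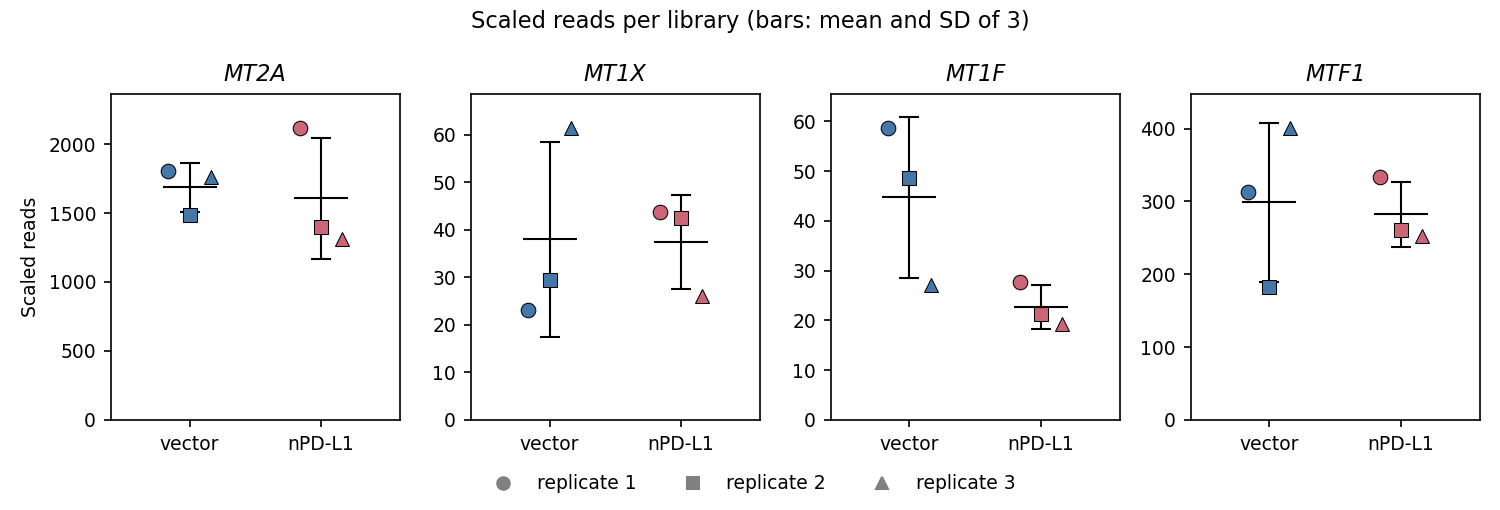
Scaled reads of MT2A, MT1X, MT1F and MTF1 (vertical axes, each from 0) in the 3 vector and the 3 nPD-L1 libraries, with symbols for the replicate number and bars for the mean and SD. The groups overlap in all 4 panels, and for MT1F only nPD-L1 replicate 1 (27.7) lies above the lowest vector library (27.0).

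Of the 4 members tested, 0 were higher and 0 lower at an adjusted p under 0.05 in limma. Over the 15076 genes tested, 4.04% were higher and 0.922% lower by the same rule, or 4.96% in either direction. At an unadjusted p under 0.05, 1 member (MT1F) was lower and 0 were higher, against 4.71% and 9.53% of all genes (14.2% in either direction). edgeR and DESeq2 on reads recovered from all 6 libraries called 0 members as well. The median log2 fold change was −0.06 over the members and −0.02 over all genes tested. The interval was narrowest for MT2A and widest for MT1X.

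**Figure D3:**
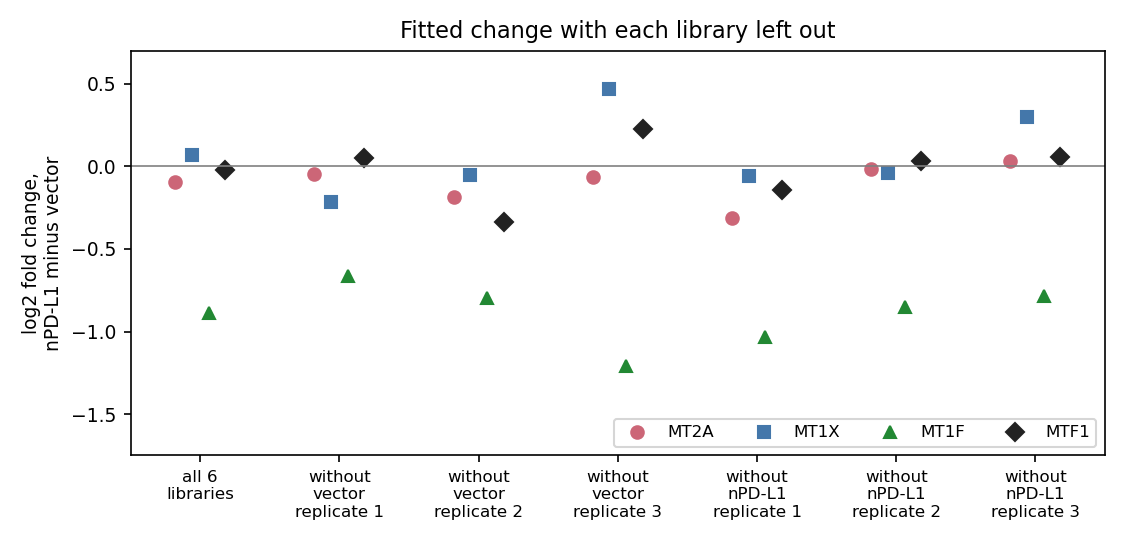
Log2 fold change (nPD-L1 minus vector) of the 4 members with all 6 libraries and with each library left out. MT1F stays below 0 in every fit (−1.21 to −0.67), while MT2A, MT1X and MTF1 fall on both sides of 0.

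Other metallothionein loci were low. Of 13 listed, MT1DP, MT1XP1, MT2P1 and MT1P1, all annotated as pseudogenes, had a row, and none reached the minimum for testing. MT1DP, a transcribed pseudogene inside the chromosome 16 cluster (56643705 to 56644786), held 9.08, 6.78 and 3.12 scaled reads with the vector and 1.68, 1.01 and 1.93 with nPD-L1. Each nPD-L1 library lay under each vector library, from 9, 6 and 3 reads against 2, 1 and 2. Among all genes tested, 8.54% had nPD-L1 libraries that all lay below the vector libraries. MT1DP is not among those genes, and the share was not taken for genes of so few reads. MT2P1 had 4.04 to 15.97 scaled reads over the 6 libraries and MT1XP1 1.13 to 11.1, with overlapping groups, and MT1P1 had at most 3 reads.

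The zinc transporters around the metallothioneins were tested next. SLC30A1, the plasma membrane zinc exporter and a textbook MTF1 target, rose with nPD-L1. The vector libraries held 1366, 1194 and 1838 scaled reads, and the nPD-L1 libraries 2319, 2404 and 2432. Every nPD-L1 library was above every vector library, as for 12% of all genes tested. The log2 fold change was 0.73 (standard error 0.14, 95% interval 0.41 to 1.04, adjusted p = 0.014 from limma). This call depended on the libraries used: the adjusted p in limma was 0.0874 without vector replicate 1, and 0.0741, 0.059 and 0.0849 without nPD-L1 replicates 1, 2 and 3. It was 0.18 to 0.233 in the fits on 4 libraries by limma, edgeR and DESeq2. The call was kept without vector replicate 2 (0.00275) or 3 (0.000348) in limma. On all 6 libraries it was also made by edgeR (0.0164) and DESeq2 (0.000378), both added after the data were seen. The change of SLC30A1 was not tested against that of MT2A. The interval of MT2A ended at 0.28 and that of SLC30A1 began at 0.41. Both come from the same libraries, so separate intervals are no test of a difference.

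Of the 8 zinc exporters tested (SLC30 family, which move zinc out of the cytosol), 1 rose and 7 did not pass, with adjusted p values of 0.565 or more in limma. Over all genes tested, 4.04% were higher and 0.922% lower by this rule, and 14.2% had an unadjusted p under 0.05. Of the 11 importers tested (SLC39 family, which bring zinc into the cytosol), 0 passed in limma, 0 had an unadjusted p under 0.05, and edgeR and DESeq2 on 6 libraries also called 0. Their log2 fold changes ran from −0.25 to 0.17. SLC39A10, an importer that MTF1 is known to repress, averaged 1335 ± 239 scaled reads with the vector and 1486 ± 90.2 with nPD-L1 (SD, n = 3). Its log2 fold change was 0.17 (95% interval −0.13 to 0.46, adjusted p = 0.64 from limma). The medians were −0.05 for the exporters and 0.06 for the importers.

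**Figure D4:**
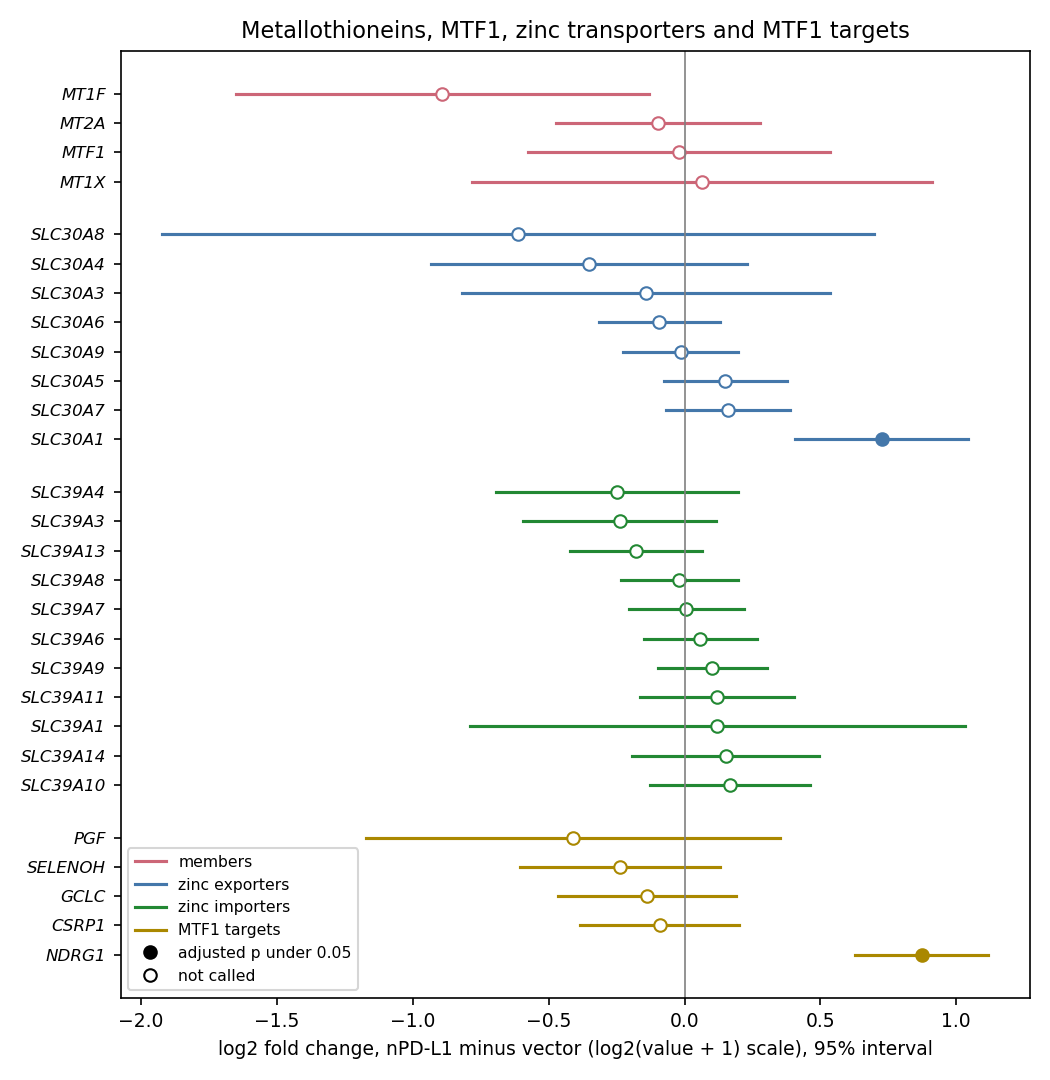
Log2 fold changes (nPD-L1 minus vector) with 95% intervals for the 4 members, 8 zinc exporters, 11 zinc importers and 5 further MTF1 targets. Filled points passed an adjusted p under 0.05 in limma, which SLC30A1 (0.73) and NDRG1 (0.87) did.

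Of the 7 reported MTF1 targets outside the family that were tested, 2 rose and 0 fell. The shares over all genes tested were 4.04% higher and 0.922% lower. The 2 that rose were SLC30A1, counted above among the zinc exporters, and NDRG1, a stress- and hypoxia-responsive gene. NDRG1 averaged 510 ± 38.2 scaled reads with the vector and 934 ± 64.1 with nPD-L1 (SD, n = 3). Its log2 fold change was 0.87, with an adjusted p of 0.00085 in limma. It was called in each fit with a library left out. GCLC, SELENOH, PGF, CSRP1 and SLC39A10 did not pass, with adjusted p values of at least 0.599 in limma. The median of the 7 was −0.09.

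Among 12 genes of the metal and oxidative stress response, which share inducers with the metallothioneins, 1 rose and 1 fell. By the same rule, 4.04% of all genes tested were higher and 0.922% lower. HMOX1, the heme oxygenase induced by heme, metals and oxidants, went from 559 ± 109 to 1020.5 ± 71.3 scaled reads (SD, n = 3; log2 fold change 0.88, adjusted p = 0.0049 from limma). OSGIN1, an oxidative stress-induced growth inhibitor, went from 3638 ± 782 to 1912 ± 323 (−0.92, adjusted p = 0.0094 from limma). OSGIN1 was not called without vector replicate 1 (0.0629) or nPD-L1 replicates 1 (0.0544) or 3 (0.0624), whereas HMOX1 was called in every such fit. The other 10 did not pass. Of the 12, 5 had an unadjusted p under 0.05 in limma, against 14.2% of all genes tested. Beside HMOX1 and OSGIN1 they were SRXN1, DNAJB1 and BAG3, with log2 fold changes of 0.34, 0.33 and 0.25. In the list, 6 log2 fold changes were above 0 and 6 below, with a median of 0.01.

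Glucocorticoid-responsive genes were examined because the MT2A promoter is also a classic glucocorticoid target. Of the 12 tested, 1 rose and 3 fell, against 4.04% higher and 0.922% lower among all genes tested. The list was chosen with earlier results known, and the called genes did not move one way. ANGPTL4, an inhibitor of lipoprotein lipase, rose by 3.13 on the log2 scale. PDK4, a kinase that restrains pyruvate dehydrogenase, fell by 2.45, IGFBP1, an insulin-like growth factor binding protein, fell by 0.85, and TSC22D3, which encodes the glucocorticoid-induced leucine zipper, fell by 0.46 (adjusted p = 0.044 from limma). The call of TSC22D3 was lost without any single library but vector replicate 2 (adjusted p 0.0914 to 0.222 in limma). That of IGFBP1 was lost without vector replicate 3 (0.0535) or nPD-L1 replicates 2 (0.0746) or 3 (0.115). FKBP5, PER1, KLF9, DUSP1, SGK1, CEBPD, ERRFI1 and NR3C1, which encodes the receptor, did not pass. CEBPD, a transcription factor of the acute phase, had the largest difference of these (−1.22, adjusted p = 0.14 from limma). The median was −0.04.

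Copper handling genes were examined because metallothioneins also buffer copper. Of 13 tested, 0 passed in limma, in edgeR or in DESeq2 on 6 libraries, and 1 had an unadjusted p under 0.05. That gene, named after its values were seen, was ATP7A, a copper-exporting ATPase, with a log2 fold change of 0.34 and an adjusted p of 0.23 in limma. Among all genes tested, 4.96% passed in limma and 14.2% had an unadjusted p under 0.05. The changes of the copper list ran from −0.18 to 0.34, with a median of −0.09. The importer SLC31A1, the chaperones ATOX1 and CCS and the copper enzyme SOD1 had log2 fold changes of −0.07, −0.16, −0.09 and −0.18.

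The genes closest in library-to-library pattern were looked up for the summed metallothioneins, which are mostly MT2A, and for MTF1, and not for MT1X or MT1F. Likeness was measured as the root mean squared difference of log2(value + 1) over the 6 libraries, after centring each gene on its mean. For the summed metallothioneins the closest genes were ZNF574 (0.0637), GLCCI1 (0.0698), TACC3 (0.0699), SAPCD2 (0.0739) and SEMA6B (0.0760), all highest in nPD-L1 replicate 1. For MTF1 they were GNL3L (0.0435), ZNF43 (0.0445), GINS4 (0.0468), CRYBG1 (0.0618) and FLNA (0.0659), all lowest in vector replicate 2 and highest in vector replicate 3. The shared highest and lowest libraries follow from choosing genes by this measure and are a description only.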

How the data were processed

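RNA was sequenced by a company from 6 libraries, 3 per group, grouped by the sample titles. CASAVA and HISAT2 2.0.5 on hg38 stand in the submitters' processing notes; the counter, its annotation and its strand setting are not given in the sources used here. The deposited value is a signal, a gene's reads after division by its library's size factor, although the table is called raw. In every library 100% of the nonzero values were whole multiples (within 0.01) of the value of 1 read, 0.840 to 1.13. In vector replicate 1 and nPD-L1 replicate 2 this value lies close to 1, so fits on reads were made on the other 4 libraries and, as an addition after the data were seen, on all 6. The table also holds the authors' means, log2 fold changes, p-values and adjusted p-values, which were not used.

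limma 3.58.1 (R 4.3.3, eBayes with trend and robust moderation) was fitted on log2(value + 1) for the 15076 genes with at least 10 in at least 3 libraries. Such fold changes understate the change of low genes. Calls were made where the p-value, adjusted by Benjamini-Hochberg over all genes tested, was under 0.05. edgeR 4.0.16 (quasi-likelihood) and DESeq2 1.42.0 were alternatives. The code was tested on simulated data. Exact permutation tests used scipy 1.17.1. Poisson intervals cover counting error only.

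The members and gene lists were chosen with earlier results of these data known. Genes were named by a rule: all members, other metallothionein loci, up to 4 called genes of each list, SLC30A1 and SLC39A10, and the 5 genes closest in pattern to the summed metallothioneins and to MTF1. Further genes named as not passing, ATP7A, CEBPD and the copper genes beside it, and the markers are named in addition. SCO2 has more than 1 row. Promoters come from RefSeq, and coding sequences from GENCODE release 29. Alternatives were other scalings, filters, pseudocounts, moderation and thresholds, a gene length trend (loess, span 0.3), the replicate number as a block and each library left out.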

Additional observations from a re-analysis of the deposited data

How the results depend on the processing

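No member was called under any alternative except at an unadjusted p under 0.05, where MT1F was (1 lower, 0 higher). The directions of MT2A, MT1X and MTF1, none of them called, turned on fits with fewer libraries: with edgeR, DESeq2 and limma on 4 libraries, MT1X was −0.37, −0.38 and −0.32, MT2A 0.081, 0.076 and 0.040, and MTF1 0.013, 0.0077 and 0.10. MT1X was also −0.013 in edgeR and −0.021 in DESeq2 on 6 libraries, both added after the data were seen. With each library left out, MT2A ran from −0.31 to 0.034, MT1X from −0.22 to 0.47, MTF1 from −0.34 to 0.23, and the log2 ratio of the summed metallothioneins (−0.085) from −0.33 to 0.044. It was −0.14 with upper-quartile factors and −0.078 with TMM factors.

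Counts of called genes in the lists moved mainly with fewer libraries or another threshold. On 4 libraries the zinc exporters had 0 calls in edgeR, DESeq2 and limma, the MTF1 targets 1, 1 and 0, the metal and oxidative stress genes 1, 2 and 0, and the glucocorticoid genes 2, 3 and 2. With a fold of at least 2 required, these lists had 0, 0, 0 and 2 calls. At an unadjusted p the stress list had 5, the glucocorticoid list 7 and the copper list 1, against 14.2% of all genes tested. With each library left out, the ranges were 0 to 1 for exporters, 1 to 2 for MTF1 targets, 1 to 3 for the stress list and 2 to 5 for the glucocorticoid list. HMOX1 was not called on 4 libraries by edgeR (adjusted p 0.0645) or limma (0.0637), and SLC30A1 by none of the 3 tools (0.18 to 0.233).

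Replicate numbers were shared by the groups, but same-numbered libraries did not all deviate together (correlations of −0.013, 0.229 and 0.131, and not every library was closest to its own number). With the replicate block, MT1F had an adjusted p of 0.125 in limma, no member or list count crossed 1.5 times, and calls over all genes went from 609 higher and 139 lower to 927 and 258. With the block and the gene length trend removed together, they were 782 and 361, and the stress list had 4 calls. Over all genes, the counts were 306 and 68 with the fold threshold, 1436 and 710 at an unadjusted p, 234 and 54 in edgeR, 311 and 83 in DESeq2 and 229 and 52 in limma on 4 libraries, and 331 to 791 and 76 to 242 with a library left out.

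MT1X and MT1F had 20 to 59 reads a library. Their intervals, 0.582-fold to 1.88-fold and 0.319-fold to 0.912-fold, were the widest of the 4 members on the log2 scale.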
